A study of Mus musculus with 18 samples.

Results

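Apolipoproteins are the protein components of the particles that carry lipid in blood, and most of them are made by hepatocytes. The 10 genes described here were taken by symbol from a table of 19057 gene rows (Apoa1, Apoa2, Apoa4, Apoa5, Apob, Apoc1, Apoc2, Apoc3, Apoe and Apom), and each has 1 row. RNA of whole liver was sequenced from 18 male ICR mice at 10 weeks of age, 3 mice in each of 6 groups. The study asked whether transplanted gut microbiota could improve sperm formation and semen quality in a mouse model of type 1 diabetes. Con mice were untreated controls given saline. AOS mice carry the label alginate oligosaccharide (AOS) at 10 mg/kg. STZ mice received streptozotocin, a compound that destroys pancreatic beta cells and is used to model type 1 diabetes, and STZ+AOS mice carry the label of both agents. A10-FMT mice received streptozotocin and then, by mouth, small intestinal microbiota of donor mice that had been given AOS at 10 mg/kg. Con-FMT mice received streptozotocin and the microbiota of donors given water. The content of the donors of each kind was pooled, so the 3 recipients of a group share an inoculum, and no group received microbiota without streptozotocin. The AOS and STZ+AOS groups are known here from the labels alone, so the route and timing of AOS in them are not described.

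The apolipoproteins divide the work of lipid transport. Apoa1 and Apoa2 are the main structural proteins of high density lipoprotein (HDL), which also carries Apom, the carrier of sphingosine-1-phosphate. Apob is the scaffold of very low density lipoprotein, Apoe is the ligand by which remnants are taken up through receptors, Apoc2 activates lipoprotein lipase, Apoc3 and Apoc1 restrain lipolysis and uptake, Apoa5 promotes the clearance of triglyceride, and Apoa4 is made by the intestine and, in mice, by the liver.

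Expression was given in RPKM, a read count divided by transcript length and library size, so levels can be compared between genes. Sequencing depth is not stated in the table. Values of 15 rare genes that stepped by whole reads placed the relative depth of the libraries between 0.927 and 1.09, from few values each. The hepatocyte markers marked the tissue as liver, with albumin between 24367 and 37719 RPKM. The intestine also makes Apoa4 and Apob. Of 6 enterocyte markers, Sis, Lct and Cdx2 did not exceed 0.03 RPKM in any library, Vil1 reached 0.18, Alpi reached 0.61, and Fabp2 was at 20.3 to 67.3 in all. Their sum was 36.6 to 57.4 RPKM in Con and 23.99 to 41.5 in STZ, and their part in the Apoa4 and Apob values was not tested. Along the main axis of variation over all genes, STZ mouse 3 lay at 0.18, apart from the other STZ mice at 45.9 and 46.4. It lay within the ranges of the A10-FMT mice (-5.74 to 7.14) and the Con-FMT mice (-13.1 to 18.3). STZ mouse 3 was kept, and for STZ against Con the counts of called members and of called partner genes were repeated without it. For the transplant groups against STZ, the shares of all genes and the partner genes are given only with it included.

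All 10 genes were abundant, at 183 RPKM or more in every library. They fell into 2 tiers. Apoa2 (13465 to 26313 RPKM), Apoe (11312 to 18899), Apoc1 (7019 to 14171), Apoa1 (4182 to 10715) and Apoc3 (2770 to 5836) ranked between place 1 and place 33 of all genes in every library. Apoa5 (366 to 1159), Apoc2 (287 to 781), Apoa4 (183 to 855), Apob (325 to 439) and Apom (204 to 491) ranked between place 75 and place 452. Together the genes held 7.09% ± 1.22 of the summed RPKM in Con, 8.26% ± 0.929 in AOS, 8.98% ± 1.65 in STZ, 8.43% ± 1.24 in STZ+AOS, 9.40% ± 1.39 in Con-FMT and 9.99% ± 0.0202 in A10-FMT (mean ± SD, n = 3). In this share all A10-FMT mice (9.97% to 10.0%) lay above all Con mice (5.76% to 8.16%), AOS mice (7.65% to 9.33%) and STZ+AOS mice (7.46% to 9.82%). All Con-FMT mice (8.41% to 11.0%) lay above all Con mice, and the other pairs of groups overlapped. The share also depends on the summed RPKM of the library, with a mean of 772447 in Con and 692108 in Con-FMT. Undivided, the sums of the 10 genes overlapped between Con (46496.63 to 61169) and Con-FMT (58288.99 to 73985.57). Those of A10-FMT (67632.72 to 71069.33) still lay above all Con, AOS (at most 66978.42) and STZ+AOS mice (at most 63094.03).

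**Figure D1:**
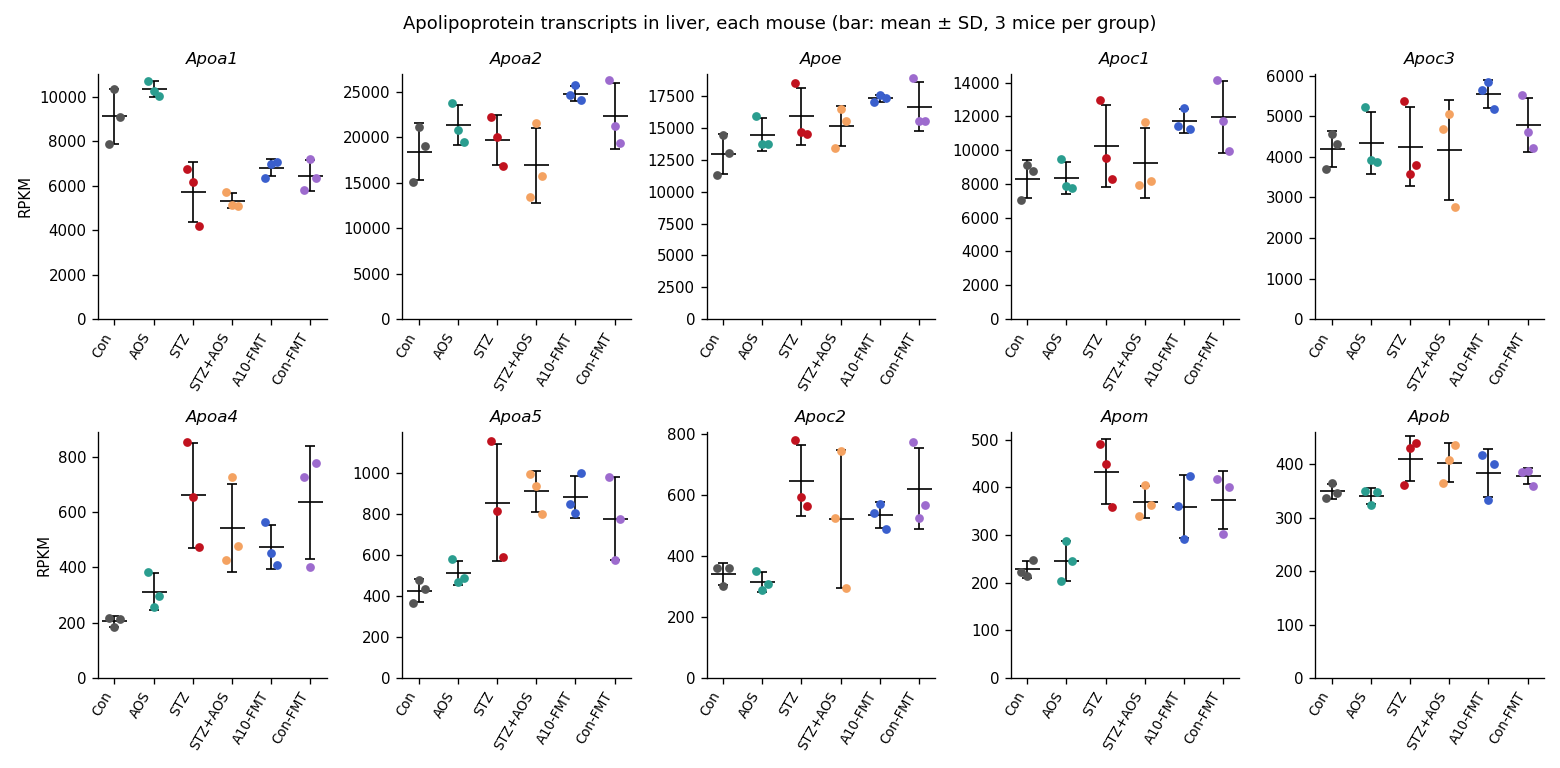
RPKM of each of the 10 apolipoprotein genes (vertical axes, linear from 0) in each mouse (points) by group, with the group mean and SD as bars (3 mice per group). Apoa1 was at 7890 or more in all Con and AOS mice and at 7193 or less in all mice given streptozotocin, whereas Apoa4 was at 384 or less in all Con and AOS mice and at 402 or more in all others.

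Genomic position is shared by most members. In the mm10 build (GRCm38, GENCODE annotation), Apoa1, Apoc3, Apoa4 and Apoa5 lie within 43340 bases of chromosome 9, at chr9:46228580-46271919, and Apoe, Apoc1 and Apoc2 lie within 27610 bases of chromosome 7, at chr7:19671579-19699188. Apoa2 is on chromosome 1, Apob on chromosome 12 and Apom on chromosome 17. Apoc2 overlaps Gm44805 on the same strand, so reads of the pair could be split, although Gm44805 was listed at only 3.48 to 24.7 RPKM. Opposite-strand transcripts are annotated over Apoa4 and Apoa5, and the preparation did not mark strand. The sequences before the start sites of the 4 genes printed here are shown because 3 of them are neighbours whose RPKM moved in opposite directions with streptozotocin (not under quantile normalization) and the other, Apoc2, moved with 2 of these. They are from RefSeq (GRCm38.p6), 5′ to 3′ on the strand of the gene, and contain only bases before the annotated gene and outside exons of protein coding genes. The Apoa4 stretch lies within Gm47528, a transcript annotated on the opposite strand with no row in the table. Capitals mark a match to AGGTCA (an element bound by nuclear receptors), CAAAGTCC (a core of HNF4A sites), TGTTTAC (a forkhead site) or TATAAA on either strand.
Apoa1, chr9:46228380-46228579, plus strand: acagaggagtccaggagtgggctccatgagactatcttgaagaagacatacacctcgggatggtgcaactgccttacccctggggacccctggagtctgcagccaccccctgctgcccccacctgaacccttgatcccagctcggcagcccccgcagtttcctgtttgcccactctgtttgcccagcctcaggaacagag
Apoa4, chr9:46240594-46240695, plus strand: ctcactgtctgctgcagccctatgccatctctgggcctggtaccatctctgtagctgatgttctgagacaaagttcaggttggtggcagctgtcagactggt
Apoa5, chr9:46268383-46268632, plus strand: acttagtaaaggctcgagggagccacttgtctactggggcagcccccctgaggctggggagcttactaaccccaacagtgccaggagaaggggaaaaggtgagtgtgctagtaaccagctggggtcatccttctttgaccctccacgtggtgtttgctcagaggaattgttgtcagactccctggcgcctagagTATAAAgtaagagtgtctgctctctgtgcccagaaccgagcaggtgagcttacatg
Apoc2, chr7:19677942-19678082, minus strand: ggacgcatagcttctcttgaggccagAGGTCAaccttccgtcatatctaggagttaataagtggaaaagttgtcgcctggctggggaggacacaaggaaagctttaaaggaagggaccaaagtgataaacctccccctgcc

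A promoter entry was found for 8 of the 10 genes, with 12 windows of 250 bases for their alternative starts. AGGTCA was in 2 of these 12 windows and in 14.0% of 32851 windows of all genes, CAAAGTCC in 0 and 1.2%, TGTTTAC in 1 and 3.17%, and TATAAA in 5 and 12.4%. The windows are not independent, since the 2 of Apoa5 overlap and hold the same TATAAA, which is counted in each. The Apoa5 window printed here carries TATAAA at bases 56 to 51 before its start and the Apoc2 window carries AGGTCA at bases 115 to 110. The windows of Apoa1 and Apoa4 hold none of the 4 strings. These matches describe letters only, since no binding was measured.

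The comparison of STZ with Con asks what streptozotocin did to the apolipoprotein transcripts. Apoa4, Apoa5, Apom and Apoc2 rose, Apoa1 fell except under quantile normalization, and Apoa2, Apob, Apoc1, Apoc3 and Apoe did not pass the test. Changes are on the log2(RPKM + 1) scale with the standard error, tested with limma over 10822 genes with Benjamini-Hochberg adjustment, with calls made at an adjusted p under 0.05. Thus 5 of 10 genes were called, against 36.1% of all genes tested. The 4 that rose compare with 30.8% of all genes called higher and the 1 that fell with 5.25% called lower. The median change was 0.29 over the 10 genes and 0.21 over all genes tested. Without STZ mouse 3 the count was 5 as well.

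Apoa1 was at 7890, 10371 and 9077 RPKM in Con and at 6732, 6189 and 4182 in STZ. All STZ mice were below all Con mice. The log2 change was -0.70 ± 0.20 (adjusted p = 0.0135), or -0.91 relative to the median of all genes. This call was lost in 5 of 16 alternatives. The adjusted p was 0.0761 with each library rescaled to the same sum of RPKM, and with quantile normalization the change was 0.05 (adjusted p = 0.881), where Apoa1 ranked at places 11 to 15 in Con and 9 to 19 in STZ. Without Con mouse 2 the adjusted p was 0.0502, without a filter on low genes it was 0.158, and with Con and STZ fitted alone it was 0.146. Apoa2, its partner in HDL, had 15063, 21167 and 19006 RPKM in Con and 22195, 20072 and 16798 in STZ. The groups overlapped, and the log2 change of Apoa2 was 0.10 with a 95% interval of -0.41 to 0.62.

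Among the members Apoa4 had the largest change in this comparison. It was at 218, 183 and 214 RPKM in Con and at 855, 654 and 474 in STZ, a log2 change of 1.65 ± 0.27 (adjusted p = 0.000562). Every STZ mouse exceeded every Con mouse, STZ mouse 1 being the highest of all 18 libraries. Relative to the median of all genes the change was 1.43, and 98.5% of the genes tested had a change no higher than that of Apoa4. Apoa5, its neighbour, was at 366, 478 and 436 RPKM in Con and at 1159, 816 and 590 in STZ. The log2 change of Apoa5 was 0.96 ± 0.23 (adjusted p = 0.00498) and the groups did not overlap. Apom, located on another chromosome, was at 221, 213 and 248 RPKM in Con and at 491, 449 and 359 in STZ. Its log2 change was 0.92 ± 0.17 (adjusted p = 0.0013), again with no overlap. Apoa4, Apoa5 and Apom stayed called in all 16 alternatives run for this comparison at an adjusted p under 0.05.

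Of the apolipoproteins C, which act on lipolysis, Apoc2 was called and Apoc1 and Apoc3 were not, and differences among the 3 genes were not tested. Apoc2, the activator of lipoprotein lipase, was at 362, 301 and 361 RPKM in Con and at 781, 594 and 565 in STZ, with a log2 change of 0.91 ± 0.25 (adjusted p = 0.0124). All STZ mice were above all Con mice. The adjusted p of Apoc2 was 0.0663 after median-ratio scaling, 0.0589 after quantile normalization and 0.056 without STZ mouse 1. Apoc3, the inhibitor, was at 3708, 4555 and 4313 RPKM in Con and at 5373, 3569 and 3809 in STZ. Its groups overlapped, and the interval of its log2 change was -0.50 to 0.50. The log2 change of Apoc1 was 0.29 ± 0.23 (adjusted p = 0.339) and its groups overlapped too.

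Of the particle scaffold and the receptor ligand, neither was called. Apob was at 338 to 365 RPKM in Con and 362 to 439 in STZ (log2 change 0.23 ± 0.12, adjusted p = 0.136). Apoe was at 11312 to 14428 RPKM in Con and 14538 to 18510 in STZ. Every STZ mouse exceeded every Con mouse in Apoe, and the log2 change was 0.30 ± 0.20 (adjusted p = 0.26). In all, 6 of the 10 genes did not overlap between STZ and Con, against 47.6% of all genes tested. With quantile normalization Apoc1 and Apoe were called higher, and with equal sums of RPKM Apob was (adjusted p = 0.0111, 0.02 and 0.0102), so that the uncalled genes also depend on scaling.

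STZ+AOS against AOS gives the streptozotocin effect in mice labelled with AOS, in libraries that the previous comparison did not use. Apoa1 fell again, Apoa4, Apoa5 and Apom rose again, and Apoc2 did not pass. These 4 of 10 genes compare with 37.9% of all genes tested, 31.8% higher and 6.11% lower. The median change was 0.18 over the 10 genes and 0.21 over all.

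Apoa1 was at 10715, 10273 and 10022 RPKM in AOS and at 5727, 5145 and 5109 in STZ+AOS, a log2 change of -0.96 ± 0.20 (adjusted p = 0.00221). The groups were far apart relative to their spread. With quantile normalization the change of Apoa1 was -0.25 (adjusted p = 0.378), and without a filter on low genes the adjusted p was 0.0505. Apoa5 was at 579, 470 and 487 RPKM in AOS and at 997, 936 and 800 in STZ+AOS (log2 change 0.83 ± 0.23, adjusted p = 0.0106). It stayed called in all 15 alternatives. Apoa4 was at 384, 256 and 298 RPKM in AOS and at 428, 726 and 476 in STZ+AOS (log2 change 0.78 ± 0.27, adjusted p = 0.035). Apoa4 was no longer called without AOS mouse 2, AOS mouse 3 or STZ+AOS mouse 2 (adjusted p = 0.131, 0.0878 and 0.139), nor with median-ratio scaling, quantile normalization, no filter or the compared groups alone (adjusted p = 0.135, 0.109, 0.0605 and 0.0558). Apom rose by 0.60 ± 0.17 on the log2 scale (adjusted p = 0.015), from 204, 287 and 246 RPKM to 339, 404 and 364, and was not called without AOS mouse 1 (adjusted p = 0.0693), with median-ratio scaling (0.118) or with quantile normalization (0.0553).

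Apoc2 was at 350, 287 and 309 RPKM in AOS and at 525, 746 and 294 in STZ+AOS. STZ+AOS mouse 3 lay within the AOS range, and the log2 change of 0.63 ± 0.25 was not called (adjusted p = 0.062). Without that mouse 5 genes were called. In total 5 of 10 genes did not overlap between STZ+AOS and AOS, Apob among them, against 49.1% of all genes tested. None of the 10 genes passed the test of the difference between the streptozotocin changes with and without AOS, which called 0 of all genes tested (0%, 584 genes at an unadjusted p under 0.05). The nearest was Apoa4, whose change was smaller with AOS by 0.87 on the log2 scale (95% interval of the difference -1.69 to -0.05, unadjusted p = 0.039, adjusted p = 0.856).

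**Figure D2:**
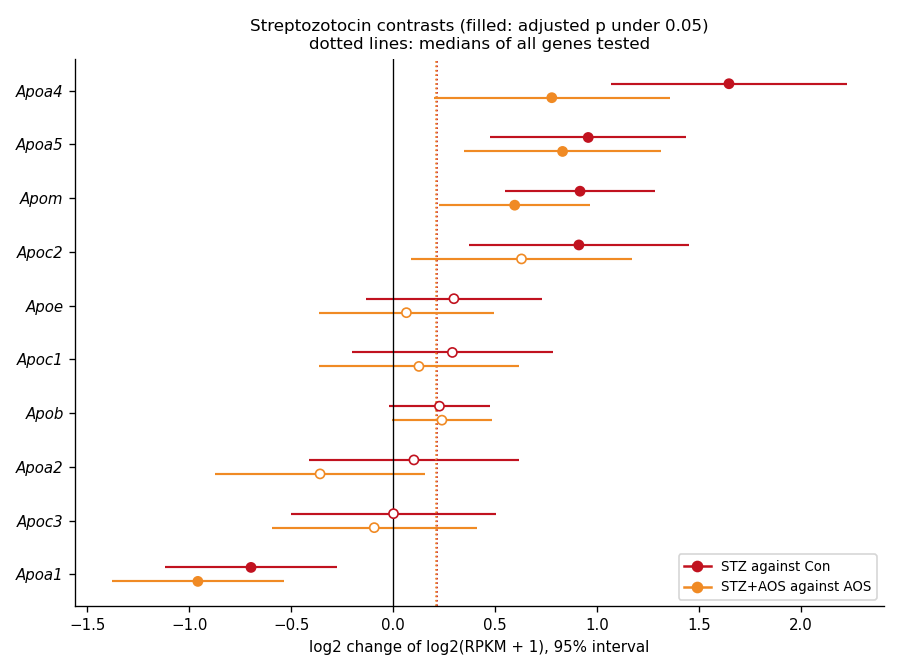
Log2 change of each apolipoprotein gene (horizontal axis, 95% interval as bars) in STZ against Con (red) and STZ+AOS against AOS (orange), with filled points for an adjusted p under 0.05 (limma) and dotted lines at the medians of all genes tested. Apoa4, Apoa5 and Apom lie right of the medians and Apoa1 left of 0 in both.

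Ratios of members within a library are not changed by multiplying the whole library by a factor, as median-ratio scaling and equal sums do, but quantile normalization changes them. The following were chosen with the values in view. Apoa1 as a percentage of Apoe was 70.4% ± 1.32 in Con and 71.6% ± 4.05 in AOS, against 35.7% ± 6.67 in STZ, 35.6% ± 6.23 in STZ+AOS, 39.2% ± 7.83 in Con-FMT and 39.3% ± 1.70 in A10-FMT. The 12 mice given streptozotocin lay between 28.8% and 46.2% and the 6 other mice between 67.1% and 74.8%. Apoa4 as a percentage of its neighbour Apoa1 was 2.30% ± 0.500 in Con and 11.5% ± 1.08 in STZ, while Con-FMT had 10.1% ± 3.93 and A10-FMT had 7.03% ± 1.60.

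Apoc2 as a percentage of Apoc3, the activator of lipoprotein lipase over its inhibitor, was 8.25% ± 1.58 in Con, 7.32% ± 0.626 in AOS, 15.3% ± 1.15 in STZ, 12.2% ± 2.22 in STZ+AOS, 12.9% ± 1.40 in Con-FMT and 9.62% ± 0.165 in A10-FMT. All 3 A10-FMT mice (9.46% to 9.79%) lay below all STZ mice (14.5% to 16.7%) and all Con-FMT mice (11.3% to 14.0%) and reached into the range of Con (6.60% to 9.76%). Con-FMT lay wholly below STZ in this ratio and wholly above Con. Apoa5 as a percentage of Apoc3 was 10.2% ± 0.315 in Con, 20.0% ± 3.94 in STZ, 16.2% ± 3.23 in Con-FMT and 16.0% ± 2.92 in A10-FMT, and each of the last 3 groups lay above Con in every mouse. These ratios were not tested.

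**Figure D3:**
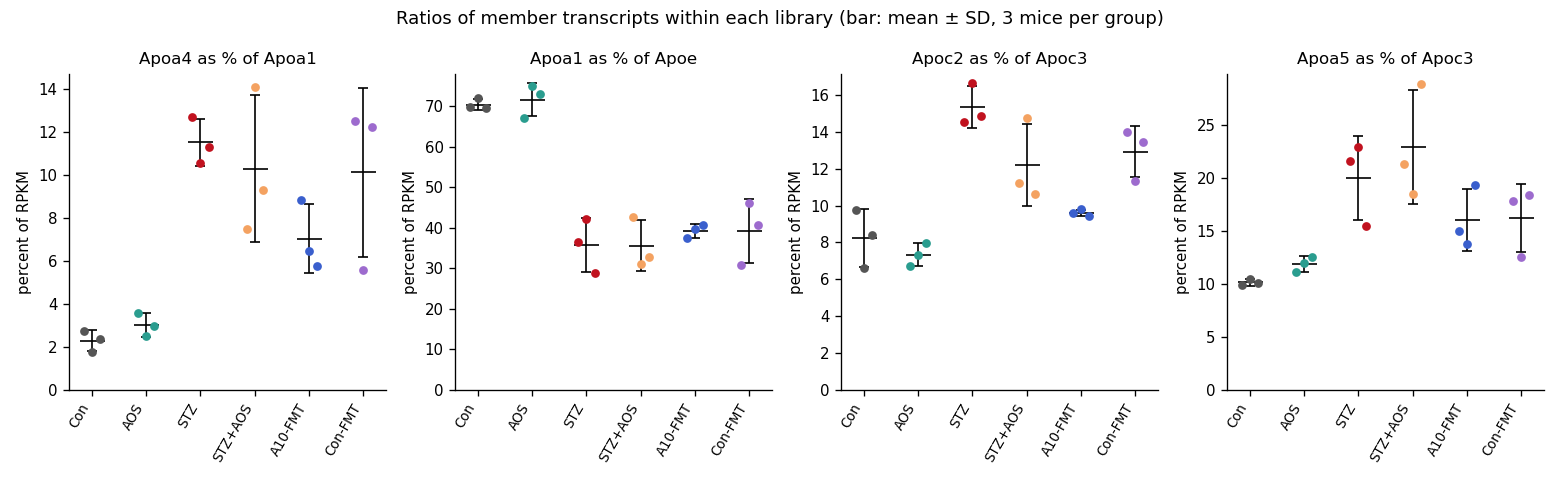
Ratio of 2 apolipoprotein transcripts within each library, in percent (vertical axes, linear from 0), by group, with mice as points and the group mean and SD as bars (3 mice per group). Apoa1 over Apoe separates the 12 mice given streptozotocin from the other 6, and Apoc2 over Apoc3 is at 9.46% to 9.79% in A10-FMT against 14.5% to 16.7% in STZ.

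The transplants were compared with STZ to ask whether microbiota moved the apolipoprotein transcripts, and none of the 10 genes passed in either. A10-FMT against STZ called 0 of 10, against 0.490% of all genes tested, and Con-FMT against STZ called 0 of 10, against 0.166%. At an unadjusted p under 0.05 limma gave 0 of the 10 genes in each, and 2041 and 2030 of the 10822 genes tested. The 2 comparisons share the STZ libraries, and their intervals are wide. The largest differences of A10-FMT from STZ were -0.45 for Apoa4 (95% interval -1.03 to 0.13) and 0.41 for Apoc3 (-0.10 to 0.91). Apoa2, at 24621, 25688 and 24090 RPKM in A10-FMT, was above all STZ mice and was the 1 gene of 10 without overlap, against 21.4% of all genes. Its log2 change was 0.34 ± 0.24 (adjusted p = 0.471). In Con-FMT the changes from STZ ran from -0.21 for Apom to 0.23 for Apoc1. A10-FMT against Con-FMT also called 0 of 10, with 0% of all genes called and 245 genes at an unadjusted p under 0.05. Here the largest difference was -0.38 for Apoa4 (-0.96 to 0.20), with Apoa4 at 563, 453 and 408 RPKM in A10-FMT and 728, 402 and 777 in Con-FMT.

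Against Con, both transplant groups were higher in Apoa4, Apoa5 and Apom, and Con-FMT also in Apoc2. These comparisons share the Con libraries with STZ against Con, so they are no repeats of it. In A10-FMT 3 of 10 genes were higher, against 14.7% of all genes tested. Apoa4 rose by 1.20 ± 0.27 on the log2 scale (adjusted p = 0.0101) and Apom by 0.64 ± 0.17 (adjusted p = 0.0217). Apoa5, at 849, 804 and 999 RPKM in A10-FMT, rose by 1.05 ± 0.23 (adjusted p = 0.00751). Apoa4 and Apoa5 stayed called in all 16 alternatives, and Apom was lost without Con mouse 1, Con mouse 2, A10-FMT mouse 1 or A10-FMT mouse 3 (adjusted p = 0.0767, 0.0583, 0.0633 and 0.108), with median-ratio scaling (0.0942) and with quantile normalization (0.096). Apoc2 was not called in A10-FMT, at 0.65 ± 0.25 (adjusted p = 0.0899). In this comparison 9 of 10 genes did not overlap, all but Apob, against 48.4% of all genes tested.

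In Con-FMT 4 of 10 genes were higher than in Con, against 16.3% of all genes tested. Apoa4 rose by 1.57 ± 0.27 (adjusted p = 0.00256) and stayed called in all 16 alternatives. Apoa5 rose by 0.84 ± 0.23 (adjusted p = 0.0214), from 366 to 478 RPKM in Con to 980, 577 and 776. Apoc2 rose by 0.85 ± 0.25 (adjusted p = 0.0333), reaching 772, 524 and 567 RPKM, and Apom by 0.70 ± 0.17 (adjusted p = 0.0151). The calls of Apoa5, Apoc2 and Apom were each lost with median-ratio scaling (adjusted p = 0.064, 0.139 and 0.0789) and with quantile normalization (0.0883, 0.127 and 0.0822), and that of Apoc2 without a filter (0.0598). Of the members, 1 was called without Con mouse 1, without Con-FMT mouse 1 or without Con-FMT mouse 3, and 2 without Con mouse 3. Here 7 of 10 genes did not overlap, against 45.3% of all genes.

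Apoa1 lay below all Con mice in both transplant groups, at 6368, 6987 and 7061 RPKM after A10-FMT and 5809, 7193 and 6338 in Con-FMT. Its log2 change from Con was -0.41 ± 0.20 (adjusted p = 0.158) and -0.50 ± 0.20 (adjusted p = 0.0909). The value depended on scaling. With median-ratio scaling both were called, at -0.62 and -0.72 (adjusted p = 0.0426 and 0.0276). With equal sums of RPKM the changes were -0.25 and -0.34 (adjusted p = 0.365 and 0.214), and with quantile normalization they were 0.09 and -0.01 (adjusted p = 0.847 and 0.981).

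**Figure D4:**
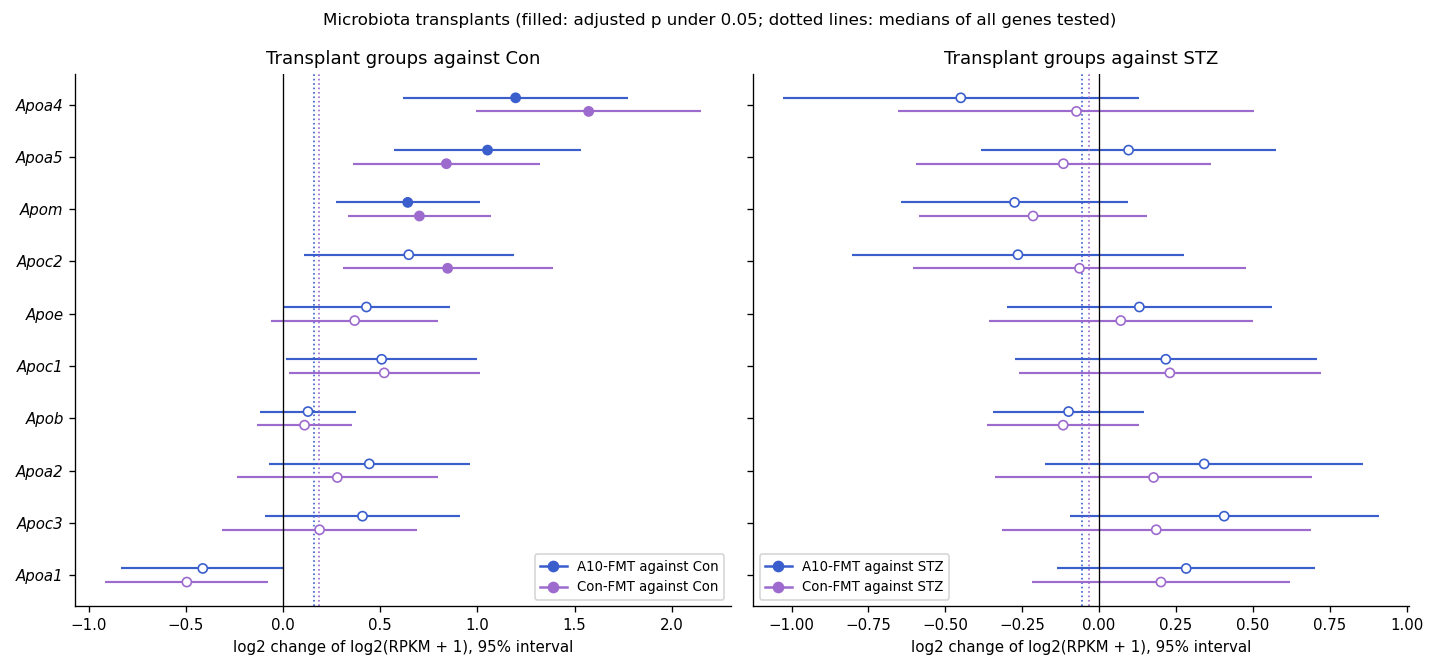
Log2 change of each apolipoprotein gene (horizontal axes, 95% interval as bars) in A10-FMT (blue) and Con-FMT (purple), against Con on the left and against STZ on the right, with filled points for an adjusted p under 0.05 (limma) and dotted lines at the medians of all genes tested. Against Con, 4 genes of Con-FMT and 3 of A10-FMT are filled, and against STZ none is.

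AOS alone called 0 of 10 genes against Con, with 0.00924% of all genes tested. Apoa4 was the single member with an unadjusted p under 0.05 (limma), as were 781 of the 10822 genes tested. It was at 384, 256 and 298 RPKM in AOS, above all Con mice, with a log2 change of 0.59 ± 0.27 (unadjusted p = 0.0465, adjusted p = 0.672). STZ+AOS against STZ also called 0 of 10, with 0% of all genes called, 657 genes at an unadjusted p under 0.05 and none of the members among them. The changes there ran from -0.40 for Apoc2 (95% interval -0.94 to 0.14) to 0.14 for Apoa5 (-0.34 to 0.62).

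Ordered by group mean, Apoa4 was highest in STZ (661 RPKM), then Con-FMT (635), STZ+AOS (543), A10-FMT (474), AOS (313) and Con (205), and each neighbour in this order overlapped the next except AOS, which lay between A10-FMT and Con without overlap. Apoa1 ran from AOS (10337) through Con (9113), A10-FMT (6805), Con-FMT (6447) and STZ (5701) to STZ+AOS (5327), and only the step from Con to A10-FMT was free of overlap. Within groups, deviations from the group mean correlated most between Apoa2 and Apoc1 (Pearson r = 0.93), Apoa2 and Apoe (0.88), Apoc1 and Apoe (0.88) and Apoc2 and Apoc3 (0.84), over 18 libraries whose depth and composition the genes share. Apoa1 and Apoa4 had an r of -0.68 over all libraries and 0.06 within groups.

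Genes whose pattern over the 18 libraries was most like that of 4 members were found by Pearson r on the log2 scale, and these values are descriptions. Apoa4 was most like Psmd3 (r = 0.94), Cpt1a (0.94) and Poldip2 (0.93), where Cpt1a is the enzyme that admits fatty acids to mitochondria. Apoa5 was most like Aamp (0.96), Stard10 (0.96) and Sephs2 (0.96), and Apoc2 was most like Tbc1d19 (0.95), Acat3 (0.94) and Sdhc (0.94). Apoa1 was most like Slc17a8 (0.93), Gngt1 (0.93) and Cib3 (0.92), which were low (at most 11.6, 3.98 and 9.23 RPKM).

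The genes beside the clusters were examined after the members were seen. Their changes stand beside a median of 0.21 over all genes tested in each of the STZ comparisons. Of all genes, 30.8% were called higher in STZ against Con and 31.8% in STZ+AOS against AOS. Next to Apoa5, Zpr1 rose by 1.10 ± 0.19 in STZ against Con (adjusted p = 0.000848) and by 1.07 in STZ+AOS against AOS (adjusted p = 0.00106). Sik3, on the other side of the cluster beside Apoa1, rose by 0.67 and 0.68 (adjusted p = 0.0124 and 0.0113). Bud13 did not pass (0.19 and 0.24, adjusted p = 0.349 and 0.236). On either side of the cluster of chromosome 7, Clptm1 and Tomm40 rose in both comparisons (0.39 and 0.48 in STZ against Con, adjusted p = 0.00866 and 0.029), whereas Apoc4, between Apoc1 and Apoc2, had 0.29 ± 0.20 (adjusted p = 0.28). Relb and Nectin2, farther out, passed in neither comparison. Gm44805, which overlaps Apoc2, rose by 1.23 ± 0.43 in STZ against Con (adjusted p = 0.0356). It was not called in STZ+AOS against AOS (0.85, adjusted p = 0.129), and sharing of reads with Apoc2 was not tested.

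Partner genes of the lipoprotein pathway were counted in lists of 73 genes, of which 70 were tested. Their counts stand beside 30.8% of all genes higher and 5.25% lower in STZ against Con, and 31.8% and 6.11% in STZ+AOS against AOS. Among lipoprotein receptors, 5 of 9 rose in STZ against Con and 0 fell. Vldlr, the receptor of very low density lipoprotein, rose from 0.35 to 0.79 RPKM in Con to 3.27 to 4.67 in STZ (log2 change 1.67 ± 0.19, adjusted p = 4.5e-05), and Scarb1, the HDL receptor, from 46.2 to 58.3 RPKM to 104 to 150 (1.28 ± 0.19, adjusted p = 0.000242). AOS mice had Vldlr at 1.25 to 2.1 RPKM, above all Con mice and below all STZ mice. Mylip and Sdc1 rose by 0.71 and 0.70 (adjusted p = 0.014 and 0.0161). In STZ+AOS against AOS 5 of 9 rose as well. The median of this list was 0.26 and 0.33, beside 0.21 and 0.21 for all genes tested.

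Among assembly genes 3 of 9 were called in STZ against Con. Sort1, a sorting receptor for Apob, fell by 1.08 on the log2 scale (adjusted p = 0.00132), Tm6sf2 rose by 1.26 (adjusted p = 0.0015), and Mttp, which loads lipid onto Apob, rose by 0.38 (adjusted p = 0.0439). Mttp overlapped between Con (58.1 to 64.6 RPKM) and STZ (64.4 to 93.1), and the median change of all genes was 0.21. Calls of partner genes under other scalings are not given here. In STZ+AOS against AOS 2 of 9 were called, Tm6sf2 higher and Sort1 lower. Of 14 genes of lipases, transfer and HDL remodelling, 5 rose and 1 fell in STZ against Con, and 5 rose and 3 fell in STZ+AOS against AOS. Angptl4, an inhibitor of lipoprotein lipase, rose from 17.3 to 25.0 RPKM in Con to 66.4 to 107 in STZ (1.85 ± 0.26, adjusted p = 0.000179). AOS mice had Angptl4 at 45.1 to 46.1 RPKM, above all Con mice and below all STZ mice. Lcat, which esterifies cholesterol in HDL with Apoa1 as cofactor, rose by 0.64 ± 0.13 (adjusted p = 0.00172), and Abcg1 and Pon3 rose by 0.69 and 0.45 (adjusted p = 0.00206 and 0.00371). The list medians in STZ against Con were 0.15 for assembly and 0.50 for lipases.

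Other apolipoproteins gave 1 gene higher and 3 lower of 14 tested in STZ against Con. Apoo rose by 0.65 (adjusted p = 0.00557) and Saa4 fell by 1.90 (adjusted p = 0.00222). Saa1 and Saa2, acute phase apolipoproteins of near-identical sequence whose reads may be shared, were called lower (-4.47 and -5.44, adjusted p = 0.0283 and 0.0138), with Con mice between 296 and 6422 RPKM in Saa1 and STZ mice between 28.0 and 454. AOS mice were also below all Con mice in both genes, at 61.1 to 278 RPKM in Saa1 and 23.7 to 110 in Saa2, where Con had 300 to 7018. In STZ+AOS against AOS 2 were higher and 1 lower, with STZ+AOS mice between 33.6 and 3430 RPKM in Saa1. The list medians were 0.17 and 0.05.

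Regulators of apolipoprotein transcription gave 9 genes higher and 1 lower of 24 tested in STZ against Con, and again 9 higher and 1 lower in STZ+AOS against AOS (list medians 0.37 and 0.24). Ppargc1a, a coactivator of nuclear receptors, rose by 1.86 ± 0.28 (adjusted p = 0.00033), Nr5a2 by 0.75 ± 0.10 (adjusted p = 0.000147) and Esrra by 0.89 ± 0.15 (adjusted p = 0.000699). Nr1d1, a transcriptional repressor and component of the circadian clock, rose by 3.19 ± 0.42 (adjusted p = 0.000119). It was at 1.22 to 3.68 RPKM in Con and at 10.0 or more in every mouse of the other 5 groups, AOS included, and its part in the differences from Con was not tested. Without STZ mouse 3, an alternative chosen after seeing the data, STZ against Con gave 4 higher and 0 lower of 9 receptors, 1 and 1 of 9 assembly genes, 8 and 1 of 14 genes of lipases, transfer and HDL remodelling, 3 and 3 of 14 other apolipoproteins and 10 and 2 of 24 regulators, beside 36.3% and 6.75% of all genes tested.

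**Figure D5:**
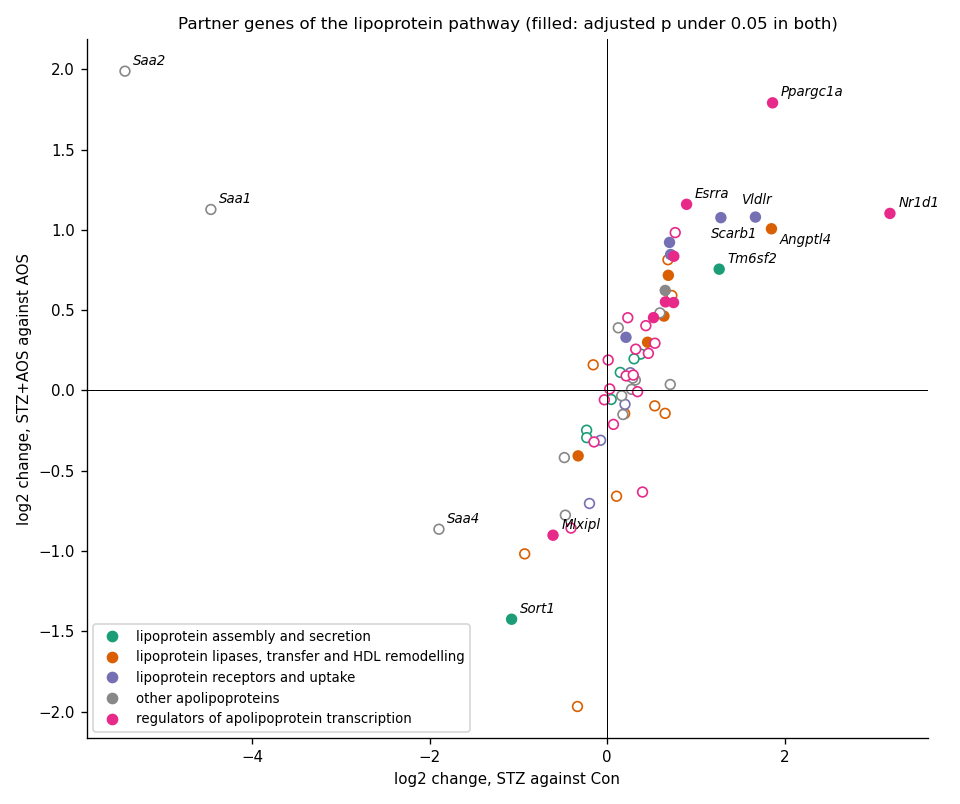
Log2 change of 70 partner genes in STZ against Con (horizontal axis) and in STZ+AOS against AOS (vertical axis), coloured by list, with filled points for genes at an adjusted p under 0.05 (limma) in both. Ppargc1a, Nr1d1, Vldlr, Scarb1, Angptl4 and Tm6sf2 lie upper right, Sort1 and Mlxipl lower left, and Saa1 and Saa2 upper left.

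In the contrasts of the transplant groups with STZ or with each other, and in AOS against Con and STZ+AOS against STZ, none of the partner genes of any list was called. Against Con, receptors gave 3 higher and 1 lower of 9 in A10-FMT. Of all genes tested, 2.39% were called lower in A10-FMT and 1.78% in Con-FMT. Vldlr rose by 1.41 in A10-FMT and by 1.34 in Con-FMT (adjusted p = 0.000329 and 0.000619), Sdc1 by 1.01 and 1.03 (adjusted p = 0.00575 and 0.00567) and Scarb1 by 0.68 and 1.11 (adjusted p = 0.0226 and 0.00205). Lsr was lower in A10-FMT, and Lrp1 was higher in Con-FMT. Assembly gave Tm6sf2 higher and Sort1 lower in both. Angptl4, Lipg and Abcg1 were higher in both, with Pon1 and Pon3 in A10-FMT and Lcat in Con-FMT. For Angptl4 the AOS mice (45.1 to 46.1 RPKM) lay within the ranges of A10-FMT (34.1 to 57.4) and Con-FMT (28.0 to 55.7). Of the other apolipoproteins Apoo was higher and Saa2 lower in both, with Apol7a higher and Saa1 and Saa4 lower in A10-FMT. In Saa1 and Saa2 the AOS mice, which received no transplant, lay below all Con mice as well. Regulators gave 7 higher in Con-FMT, and 8 higher and 1 lower in A10-FMT. Nr1d1, Rxra, Nr5a2, Nr1h2, Nr2f2, Esrra and Ppargc1a were higher in both, Nr1h4 was higher in A10-FMT and Mlxipl lower there.

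Markers of cell types moved with some of these groups. The 5 hepatocyte markers summed to 43139 to 58535 RPKM in Con and 35328 to 43463 in STZ, and 6 macrophage markers to 57.8 to 86.1 in Con and 86.5 to 194 in STZ, which touches Apoe because macrophages also make it. The 6 stellate cell and fibroblast markers summed to 72.0 to 83.1 in Con and 108 to 131 in STZ, and 5 endothelial markers to 35.6 to 40.2 and 38.4 to 50.5. The 6 pancreatic markers summed to 31.2 to 40.6 in Con and 2.96 to 8.77 in STZ, with Gcg at 0 in every library. The last sum and that of the stellate list each lean on 1 gene. Over all libraries Cela1 was at 2.96 to 48.8 RPKM, and no other pancreatic marker exceeded 7.74. Dcn was at 61.4 to 142, and no other marker of the stellate list exceeded 6.17. Markers within the other sums were uneven too. Among hepatocyte markers Alb was at 24367 to 37719 and Serpina1c at 799 to 11795, and among macrophage markers Marco was at 1.81 to 67.4 and Cd5l at 16.1 to 65.9. In whole liver, fewer cells of a type and less RNA per cell cannot be told apart, and the part of these markers in the apolipoprotein changes was not tested.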

How the data were processed

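Liver RNA of 18 mice was enriched with oligo(dT) beads, primed with random hexamers and sequenced on an Illumina instrument. The authors mapped the reads to reference genes and deposited RPKM per gene and library. The study's methods name SOAPaligner, the submitters' processing notes name Bowtie 0.12.2 and mm10, and the role of each is not resolved here. Depth is not given, so intervals cover the spread between mice. Groups came from the treatment labels, and 0 pairs of libraries had mostly identical values.

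Values were taken to log2(RPKM + 1), keeping 10822 genes that reached 1 RPKM in 3 or more libraries. A linear model of 6 group means was fitted with limma 3.58.1 (R 4.3.3) with a mean-variance trend, all libraries sharing 1 estimate of the spread, and p-values were adjusted by Benjamini-Hochberg within each of 10 contrasts. The test was tested on simulated data: of 200 genes changed by 1 on the log2 scale in STZ against Con, 178 were recovered, and 10 unchanged genes were called. The simulated noise was normal, independent between genes and at the fitted spread, without shifts of whole libraries. It therefore does not show how often true changes are found in these data. The study's methods describe no pairing, so mouse numbers were not used to pair the samples. Same-numbered mice of different groups had correlations of -0.25 to 0.47 in their deviations from group means (median 0.03, 16 of 45 pairs over 0.1). These were not compared with mice of different numbers. The members and partner lists were chosen with earlier results of these data known. Named were all members, at most 4 called genes per list by adjusted p in STZ against Con, list genes called in a transplant or AOS contrast, and the 3 genes most like each of the 4 members with the widest group means. Alternatives were other scalings, filters, a pseudocount of 0.1, no variance trend, other samples in the fit, a replicate block, each library left out, and the limits of the study (adjusted p of 0.001 and log2 change of 1). The values of 1 gene of the receptor list are not reported here.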

Additional observations from a re-analysis of the deposited data

How the results depend on the processing

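The counts of called members were the same or within 1.5 times under 16 of 17 alternatives in STZ against Con, 13 of 16 in STZ+AOS against AOS, 14 of 17 in A10-FMT against Con and 10 of 17 in Con-FMT against Con, and stayed at 0 in the other comparisons. An equal count could hold other genes. In STZ against Con, quantile normalization also called 5, with Apoc1 and Apoe in place of Apoa1 and Apoc2. Equal sums of RPKM called 5 there, with Apob in place of Apoa1. In A10-FMT against Con, median-ratio scaling called 3, with Apoa1 lower in place of Apom. With a limit of 0.001 on the adjusted p and 1 on the log2 change, the counts were 1, 0, 0 and 0 in that order. In STZ+AOS against AOS 2 members were called with median-ratio scaling and 2 without a filter. In A10-FMT against Con 6 were called with each library rescaled to the same sum of RPKM and 5 with the compared groups alone. In Con-FMT against Con 2 were called with median-ratio scaling and 1 with quantile normalization. Leaving out each mouse gave 4 to 5, 3 to 5, 2 to 3 and 1 to 4 members in the 4 comparisons. The 1 reversed value was Apoa1 in STZ against Con, at 0.0502 with quantile normalization, which sets a value by its rank. With the mouse number as a replicate block the counts were 5, 4, 3 and 4, as without it, and it changed no call. The cause of the other changes was not tested. The precision is set by 3 mice per group: the 95% interval of Apoa4 in A10-FMT against STZ ran from -1.03 to 0.13.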
